A study of Mus musculus with 6 samples.

Results

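The DNA replication genes are 49 genes whose products mark the origins of replication, open the double helix, copy it, supply its nucleotides or, for the E2F factors, switch the other genes on. A gene was a member when its name was on a list of replication genes, and the rule itself uses no measured value: it asks only whether the gene-name column of the count table holds the symbol. All 49 were found among the 40166 genes of the table, and all 49 passed the filter on low counts that left 15355 genes for testing. RNA came from 6 melanoma samples, here called tumors, grown under the skin of C57BL/6 mice from YUMM3.3, a BRAF-mutant mouse melanoma cell line. The labels number them as replicates and do not say whether each came from its own mouse. The mice of the 3 RGS tumors received 300 mg/kg rigosertib, a compound that interferes with RAS signaling, by oral gavage on 5 days a week. Those of the 3 vehicle tumors received water (0 mg/kg) in the same way, and the tumors were analysed after 17 days of treatment. The study's methods give an age of 8 to 10 weeks when tumors were established, and the sex of these mice is not in the sample labels. All tumors derive from this 1 cell line, and each library mixes melanoma cells with stromal and immune cells, so fewer cells of a type and less RNA per cell cannot be told apart.

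Before a cell can copy its DNA, the origin recognition complex, with the loading factors CDC6 and CDT1, places rings of MCM proteins on the origins, a step called licensing that geminin blocks once S phase has begun. CDC45 and the GINS complex then turn each ring into an active helicase, RPA coats the opened strands, polymerase alpha with its primase lays down primers, and polymerases delta and epsilon extend them, held on the template by the sliding clamp PCNA. Most of these genes are known targets of the E2F transcription factors, which RB holds back in resting cells, and they are low in cells that do not divide.

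Promoter stretches of a few members are shown because they carry E2F-type motifs, sequences that E2F factors are known to bind. In RefSeq promoter windows on GRCm38.p6, from 250 bases before the start of a gene to 50 bases after it, 41 of the 49 members had an entry. E2F-type motifs, searched on both strands as the exact letters TTTCCCGC, TTTGGCGC, TTTCGCGC and TTTGCCGC, stood in 17 of these 41 members (41.5%), beside 704 of all 27025 genes with a window (2.61%) and 487 of 10708 tested genes (4.55%). In the lists most like the members, they stood in 12 of 45 other replication genes (26.7%) and 4 of 25 proliferation genes (16.0%). A match is a description of letters, and nothing here measured what binds there. The stretches run 5′ to 3′ on the strand of the gene, end before its RefSeq start, and have the motifs in capitals with up to 25 bases of flank. None of them overlaps an exon in GENCODE M21.
Mcm6 (helicase), chr1:128359720-128359840, minus strand: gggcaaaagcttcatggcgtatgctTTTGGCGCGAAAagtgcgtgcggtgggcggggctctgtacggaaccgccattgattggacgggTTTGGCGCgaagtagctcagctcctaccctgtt
Mcm5 (helicase), chr8:75109331-75109392, plus strand: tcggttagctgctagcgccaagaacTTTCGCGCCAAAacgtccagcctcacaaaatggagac
Cdc6 (loading factor), chr11:98907988-98908045, plus strand: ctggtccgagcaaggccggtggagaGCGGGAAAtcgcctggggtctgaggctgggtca
Pola1 (polymerase alpha), chrX:93632261-93632318, minus strand: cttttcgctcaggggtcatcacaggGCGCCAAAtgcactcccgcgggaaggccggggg
E2f3 (E2F factor), chr13:29986064-29986099, minus strand: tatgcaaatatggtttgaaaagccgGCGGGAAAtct

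*Mcm6* held 3 motifs and *Mcm5* 2, and in both genes a pair of them overlapped in opposite orientations, so that the capitals there run longer than 1 motif. The *Cdc6* stretch lies inside the gene as GENCODE draws it, between exons, while the other four lie upstream of the GENCODE gene. *Mcm6*, *Mcm5*, *Cdc6* and *Pola1* fell with RGS, and *E2f3* did not pass the test, so the motif stood on both sides of that line. Over all members with a window, 11 of 25 that fell (44.0%) and 6 of 16 that did not pass (37.5%) held an E2F-type motif. The CCAAT box, spelled CCAAT and searched on both strands, stood in 25 of 41 members (61.0%) against 41.1% of all genes with a window, 42.9% of tested genes and 68.0% of proliferation genes. The SP1 box, spelled GGGCGG, stood in 32 of 41 members (78.0%) against 38.2% of all, 67.1% of tested and 88.0% of proliferation genes.

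Counts assigned to genes summed to between 22793087 and 32555494 in the vehicle libraries and between 13837932 and 21617368 in the RGS libraries, so the deepest RGS library was shallower than each vehicle library. Values are given as CPM (counts scaled to a common library total after TMM normalization), on which 3 counts correspond to between 0.0856 and 0.226 CPM, a floor that covers counting error only. Some cell type markers moved with the groups, and most of these sums rest on 1 or 2 genes. The summed level of 4 leukocyte markers was 187 to 249 CPM with vehicle and 920 to 1028 CPM with RGS, with *Laptm5* (mean 176 against 901 CPM) and *Cd53* higher, *Coro1a* under 1 CPM and *Ptprc* at 0 counts in every tumor. That of 7 fibroblast markers was 404 to 601 CPM with vehicle and 294 to 320 CPM with RGS, with 4 lower, *Dcn* higher and *Lum* at 0. The 5 endothelial markers summed to 0.946 to 1.20 CPM with vehicle and 3.24 to 11.2 CPM with RGS, mostly through *Cdh5*, with *Emcn* at 0. The 5 keratinocyte markers summed to 0.400 to 1.72 and 6.72 to 21 CPM, mostly through *Ivl* in the RGS tumors, with *Krt1* at 0. The 6 macrophage and myeloid markers summed to 65.1 to 71.0 CPM with vehicle and 83.0 to 106 CPM with RGS. Most of this was *Cd68* (mean 62.5 against 74.1 CPM), which did not pass the test. *Cd14* was higher, *Adgre1* was at 0, and *Csf1r*, *Itgam* and *Lyz2* had at most 4 counts in any tumor. The T cell, B cell and neutrophil lists stayed under 2 CPM in every tumor, with *Trac* higher (mean 0 against 1.08 CPM). Of 3 dendritic markers, *Flt3* was higher (mean 0.229 against 7.91 CPM), *Zbtb46* did not pass the test and *Itgax* was at 0. Of 3 erythroid markers, only *Alas2* was above 0, and it was higher (mean 0 against 0.482 CPM). Of 10 melanocyte lineage markers, *Tyr*, *Dct* and *Mlana*, which make or package pigment, had 0 counts in all 6 tumors. The list summed to 55.0 to 70.1 CPM with vehicle and 157 to 167 CPM with RGS. Most of this was *Sox9* (mean 54.6 against 152 CPM), the only marker of the list that was higher. *Mitf*, *Pmel* and *Ednrb* did not pass the test, and the means of *Sox10*, *Tyrp1* and *S100b* were under 1 CPM in both groups. The part of these cell types in the results that follow was not tested. With each library thinned to the depth of the shallowest one, 28 members were lower and 0 higher, with a median log2 fold change of -0.70, beside 29, 0 and -0.75 with all counts.

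Most replication genes were lower with RGS. By the quasi-likelihood test of edgeR, with the p-values of all tested genes adjusted together (Benjamini-Hochberg), 29 of the 49 were lower at an adjusted p under 0.05 (59.2%), against 16.5% of all tested genes. None of the 49 was higher, with a count of 0 also at an unadjusted p under 0.05 and by DESeq2, against 16.3% of all tested genes by edgeR. The median log2 fold change of the members was -0.75, that of all tested genes was -0.048, and 47 of 49 members had a value below 0. Every RGS tumor lay below every vehicle tumor for 31 members, against 24.0% of all tested genes, and every RGS tumor lay above for 0 members, against 21.7%. The 31 are the 29 genes that fell and *Pold2* and *Tk1*, which did not pass the test. A fall of at least 1 on the log2 scale past the test was seen in 17 members, against 9.44% of all tested genes.

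**Figure D1:**
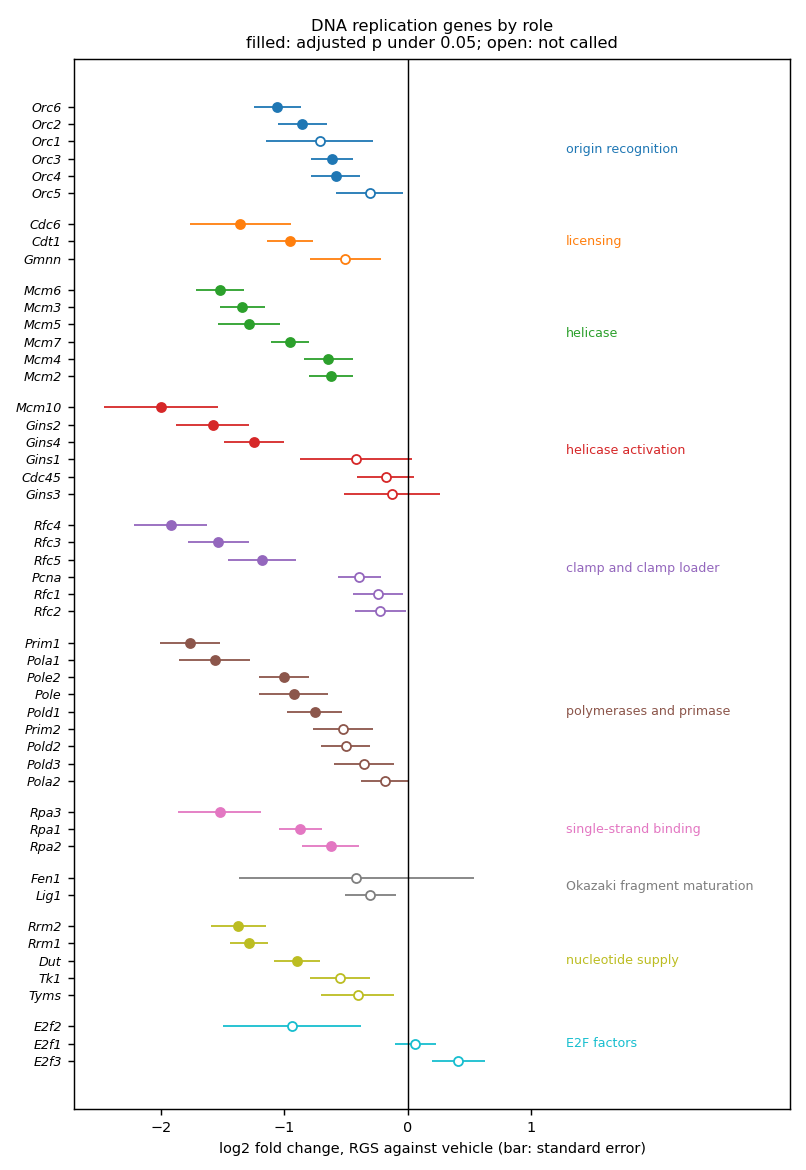
Log2 fold change of RGS against vehicle for each of the 49 DNA replication genes, in blocks by role, with the standard error as a bar, filled points for an adjusted p under 0.05 and open points otherwise. The values run from -2.0 for Mcm10 to 0.41 for E2f3, all 6 helicase genes are filled, and all points of the Okazaki fragment and E2F blocks are open.

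Summed over the 49 genes, the level was 2353, 2499 and 2547 CPM in vehicle tumors 7, 8 and 9 and 1393, 1499 and 1474 CPM in RGS tumors 10, 11 and 12. The groups were far apart on this sum and the tumors of a group close together. The members thus took 0.235% to 0.255% of the scaled counts with vehicle and 0.139% to 0.150% with RGS. In the 3 RGS tumors, 48, 43 and 44 of the 49 members lay below the vehicle mean on the log2(CPM + 0.5) scale, with median differences of -0.76, -0.77 and -0.83. The 3 RGS tumors thus lay at like distances below the vehicle tumors.

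**Figure D2:**
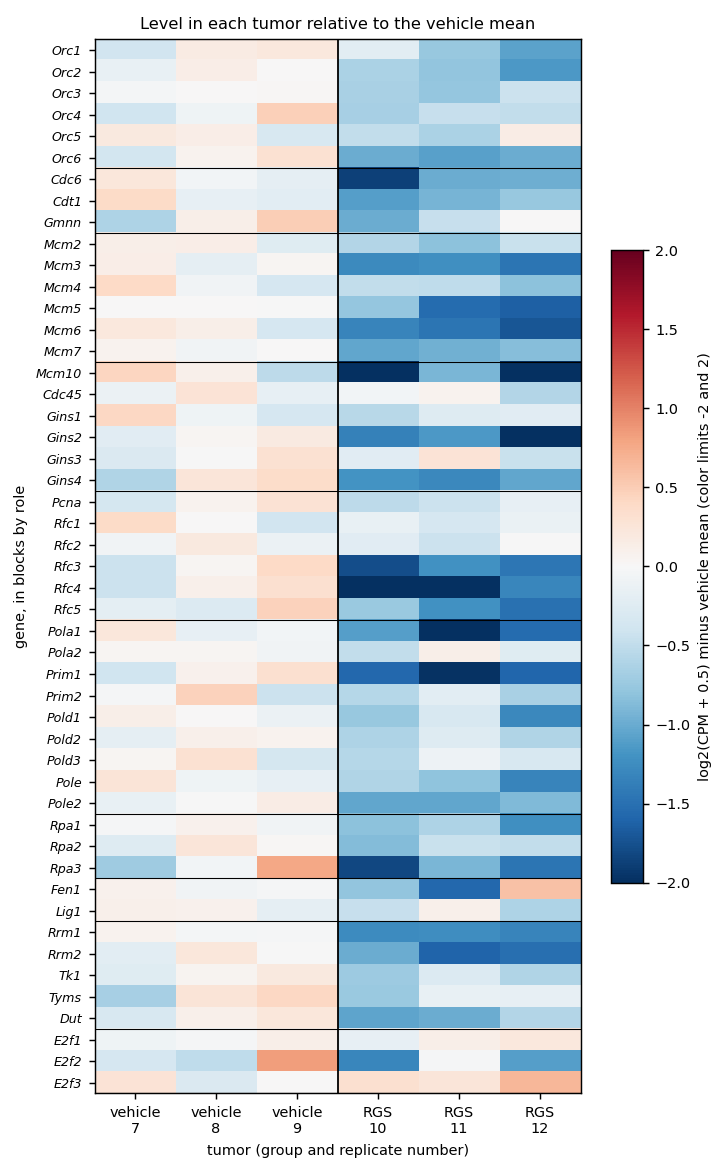
Level of each DNA replication gene (vertical axis, in blocks by role) in each of the 6 tumors (horizontal axis) as log2(CPM + 0.5) minus the vehicle mean, with the color scale limited at -2 and 2. The 3 RGS columns are blue over most of the map, with 48, 43 and 44 of 49 genes below the vehicle mean, while the vehicle columns hold 28, 18 and 23.

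The 6 helicase genes, *Mcm2* to *Mcm7*, whose products form the ring that unwinds DNA at the fork, all fell, and in none did the groups overlap. Together they measured 532, 473 and 432 CPM in vehicle tumors 7, 8 and 9 and 251, 235 and 235 CPM in RGS tumors 10, 11 and 12, and their median log2 fold change was -1.12. *Mcm6* (chr1:128331590-128359664 on GRCm38), with the largest fall, measured 98.2, 91.9 and 66.9 CPM with vehicle and 33.6, 30.5 and 25.5 CPM with RGS. The RGS tumors retained 34.9% of the vehicle mean, a log2 fold change of -1.52 (SE 0.19, adjusted p = 8.03e-06). *Mcm2*, with the smallest fall, measured 89.3, 90.5 and 69.3 CPM with vehicle and 55.0, 46.5 and 60.6 CPM with RGS. Its groups were separated only by the gap between the lowest vehicle tumor, 9, and the highest RGS tumor, 12, and its log2 fold change was -0.62 (SE 0.18, adjusted p = 0.0112). The fold changes of the subunits spread over this range, and differences between subunits were not tested. *Mcm3* (-1.34) and *Mcm5* (-1.28) lay close to *Mcm6*, *Mcm7* was at -0.95 and *Mcm4* (-0.64) lay close to *Mcm2*. Per kilobase of the listed gene length, as RPKM, the vehicle levels ran from 8.46 ± 0.0334 for *Mcm5* to 31.0 ± 1.49 for *Mcm7* (SD, n = 3), and the RGS levels of the same genes were 3.46 ± 1.26 and 16.0 ± 1.07. The call of *Mcm2* was lost without vehicle tumor 8 (adjusted p = 0.0863) or RGS tumor 11 (0.0666), and that of *Mcm4* without vehicle tumor 7 (0.0912) or RGS tumor 12 (0.0765), all by edgeR.

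**Figure D3:**
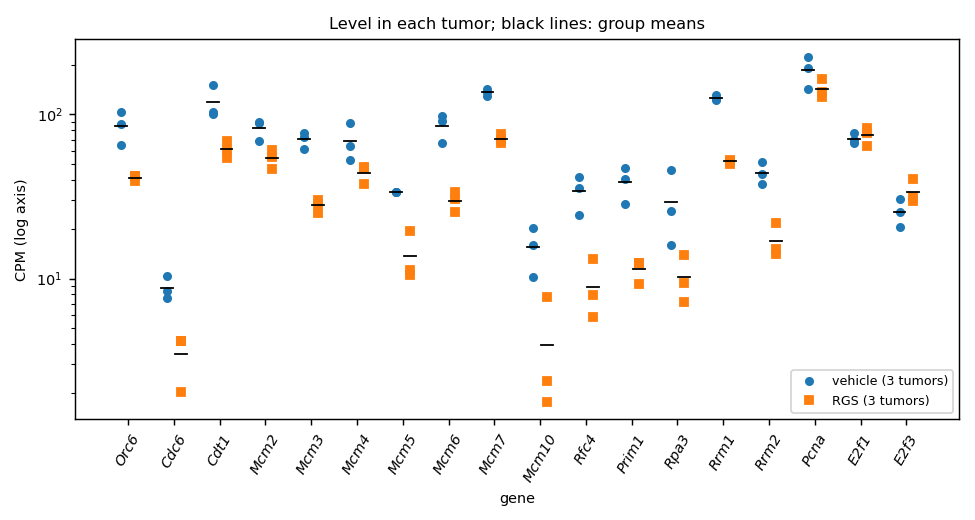
CPM on a log axis in each tumor for 18 of the DNA replication genes, picked with their values known so that most roles appear; circles are the 3 vehicle tumors, squares the 3 RGS tumors and lines the group means. Mcm6 falls from a mean of 85.7 to 29.9 CPM and Rrm1 from 126 to 51.7 CPM with no overlap, while the E2f1 groups overlap at means of 71.3 and 74.5 CPM.

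Origin recognition, the marking of origins by the ORC complex, was lower in 4 of 6 genes, with a median log2 fold change of -0.66. *Orc6* measured 65.1, 87.9 and 104 CPM with vehicle and 42.0, 39.5 and 42.1 CPM with RGS. The 3 RGS tumors were almost equal while the vehicle tumors spread widely above them (log2 fold change -1.05, SE 0.19, adjusted p = 0.000258). *Orc4*, with the smallest fall among those that passed, measured 79.5, 98.6 and 146 CPM with vehicle and 66.1, 76.1 and 74.3 CPM with RGS. The gap between its groups was narrow, and vehicle tumor 9 stood well above the others (log2 fold change -0.58, SE 0.20, adjusted p = 0.0295). *Orc2* fell by 0.85 and *Orc3* by 0.62 on the log2 scale. *Orc1* (-0.71, adjusted p = 0.222), the subunit known for its cell-cycle rhythm, and *Orc5* (-0.31, adjusted p = 0.411) did not pass the test. Per length the complex was uneven, from 1.92 ± 0.432 RPKM for *Orc1* to 34.7 ± 7.90 RPKM for *Orc6* with vehicle (SD, n = 3). The call of *Orc4* was lost in 4 of the 6 fits that left out 1 tumor, with adjusted p = 0.276 without vehicle tumor 9, 0.122 without RGS tumor 10, 0.0542 without RGS tumor 11 and 0.0603 without RGS tumor 12. That of *Orc3* was lost without vehicle tumor 8 (adjusted p = 0.0539) or RGS tumor 11 (0.0531).

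Of the 3 licensing genes, both loading factors fell and geminin, which blocks licensing, did not pass the test. *Cdt1* measured 152, 104 and 101 CPM with vehicle and 54.1, 60.9 and 68.6 CPM with RGS. The groups stood well apart, with a log2 fold change of -0.96 (SE 0.18, adjusted p = 0.000567). *Cdc6*, at low levels, measured 10.3, 8.37 and 7.65 CPM with vehicle and 2.04, 4.14 and 4.16 CPM with RGS. The RGS tumors retained 39.1% of the vehicle mean (log2 fold change -1.36, SE 0.41, adjusted p = 0.0163), and the call was lost without vehicle tumor 7 (0.0651) or vehicle tumor 8 (0.0547). Geminin (*Gmnn*) measured 18.4, 31.0 and 40.2 CPM with vehicle and 14.1, 20.4 and 28.5 CPM with RGS. Its groups overlapped (log2 fold change -0.51, SE 0.29, adjusted p = 0.189), and it passed the test without vehicle tumor 7, the lowest of its group (-0.76, adjusted p = 0.0252).

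Helicase activation was split, with 3 of 6 genes lower. *Mcm10* (chr2:4989714-5012791), whose product helps to start the assembled helicase, measured 20.2, 16.1 and 10.2 CPM with vehicle and 2.37, 7.68 and 1.77 CPM with RGS. Its log2 fold change of -2.0 (SE 0.46, adjusted p = 0.00249) was the lowest value among the 49 members, while RGS tumor 11 stood above the other two RGS tumors, and leaving out 1 tumor gave values from -2.91 to -1.68 that all passed. *Gins4*, a subunit of the GINS complex, measured 27.0, 49.3 and 53.4 CPM with vehicle and 17.9, 16.7 and 19.9 CPM with RGS. Again the RGS tumors were nearly equal, below a wider vehicle group (log2 fold change -1.25, SE 0.24, adjusted p = 0.000612). *Gins2*, which shares 67.3% of its exonic bases with a gene on the opposite strand, fell by 1.58 on the log2 scale (adjusted p = 0.000394), while *Gins1* (-0.42, adjusted p = 0.515) and *Gins3* (-0.13, adjusted p = 0.830), 2 further subunits of the same complex, did not pass. *Gins3* turned to 0.051 without vehicle tumor 9. *Cdc45*, which completes the helicase, had means of 27.4 ± 4.91 and 24.2 ± 5.56 CPM in the vehicle and RGS groups (SD, n = 3), which overlapped (log2 fold change -0.18, adjusted p = 0.598).

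Among the clamp and clamp loader genes, 3 of 6 fell and all 3 encode small subunits of replication factor C, which opens the clamp and sets it on the primer. *Rfc4* measured 24.5, 35.6 and 41.7 CPM with vehicle and 7.91, 5.80 and 13.1 CPM with RGS. The RGS tumors retained 26.4% of the vehicle mean (log2 fold change -1.92, SE 0.29, adjusted p = 6.23e-05). *Rfc5* measured 23.1, 21.8 and 36.3 CPM with vehicle and 15.5, 11.1 and 9.05 CPM with RGS, without overlap (log2 fold change -1.18, SE 0.27, adjusted p = 0.00264). *Rfc3* measured 29.6, 41.0 and 53.1 CPM with vehicle and 11.3, 17.1 and 14.3 CPM with RGS, with every RGS tumor under the lowest vehicle tumor (log2 fold change -1.53, SE 0.25, adjusted p = 0.000101). The large subunit did not share this pattern at the level of the test. *Rfc1* measured 66.6, 51.1 and 39.1 CPM with vehicle and 46.1, 40.2 and 46.7 CPM with RGS, with the RGS tumors inside the vehicle range (log2 fold change -0.24, adjusted p = 0.391), and *Rfc2*, the other small subunit, was at -0.22 (adjusted p = 0.443).

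The clamp itself, *Pcna*, had the highest level per length of the 49 members, at 78.1 ± 17.1 RPKM with vehicle and 59.5 ± 7.90 RPKM with RGS (SD, n = 3). It measured 144, 193 and 225 CPM with vehicle and 128, 137 and 164 CPM with RGS. The groups overlapped through vehicle tumor 7, and the log2 fold change of -0.39 (SE 0.18, adjusted p = 0.0971) did not pass the test. Without that tumor it was -0.55 (adjusted p = 0.00399), and with scaling by library size alone it was -0.53 (adjusted p = 0.0247).

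Of the 9 polymerase and primase genes, 5 fell, and the members of 1 enzyme, polymerase alpha-primase, went from the largest to the smallest change of the group. *Prim1* (chr10:128015168-128030037), the catalytic primase subunit, measured 28.5, 40.5 and 47.2 CPM with vehicle and 12.4, 9.27 and 12.4 CPM with RGS. The RGS tumors retained 29.4% of the vehicle mean (log2 fold change -1.76, SE 0.24, adjusted p = 1.96e-05). *Pola1*, the catalytic polymerase subunit, measured 26.8, 20.2 and 21.8 CPM with vehicle and 10.4, 5.27 and 7.53 CPM with RGS, again far apart (log2 fold change -1.56, SE 0.29, adjusted p = 0.000359). Their partners behaved differently in the test. *Prim2*, the large primase subunit, measured 30.8, 43.3 and 23.3 CPM with vehicle and 21.1, 27.0 and 19.8 CPM with RGS, with overlap (log2 fold change -0.52, adjusted p = 0.103), and it passed without vehicle tumor 9 (-0.71, adjusted p = 0.0319) or with scaling by library size alone (-0.67, adjusted p = 0.0458). *Pola2*, the accessory subunit, measured 44.7, 44.9 and 41.3 CPM with vehicle and 30.8, 47.5 and 36.9 CPM with RGS, where RGS tumor 11 exceeded every vehicle tumor (log2 fold change -0.19, adjusted p = 0.499).

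The elongating polymerases fell in their catalytic subunits. *Pold1*, the catalytic subunit of polymerase delta, measured 57.3, 52.5 and 48.2 CPM with vehicle and 30.7, 41.9 and 21.2 CPM with RGS. The groups did not overlap (log2 fold change -0.75, SE 0.22, adjusted p = 0.0131), and the call was lost without RGS tumor 12, the lowest (-0.56, adjusted p = 0.0620). The accessory subunit *Pold2* also had no overlap but missed the threshold (-0.50, adjusted p = 0.0601). It passed without vehicle tumor 7 (0.0280), without RGS tumor 11 (0.0440), and with upper-quartile (0.0450) or library-size (0.0214) scaling. *Pold3* was at -0.35 (adjusted p = 0.290). In polymerase epsilon both member genes fell, the catalytic subunit *Pole* by 0.92 (adjusted p = 0.0165) and *Pole2* by 1.0 (adjusted p = 0.000766) on the log2 scale, and so did its small subunits outside the member list, *Pole3* (-0.55, adjusted p = 0.0288) and *Pole4* (-0.77, adjusted p = 0.00814). The call of *Pole* was lost without vehicle tumor 7 (0.0661) or RGS tumor 12 (0.0551).

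All 3 genes of replication protein A, the complex that covers single-stranded DNA, fell without overlap. *Rpa3* measured 16.1, 25.7 and 45.8 CPM with vehicle and 7.24, 14.0 and 9.36 CPM with RGS. The vehicle tumors differed among themselves nearly as much as the groups did (log2 fold change -1.52, SE 0.34, adjusted p = 0.00176). *Rpa2*, with the smallest fall, measured 22.6, 31.9 and 27.4 CPM with vehicle and 14.5, 19.7 and 19.1 CPM with RGS. Its call stood closest to the threshold (log2 fold change -0.62, SE 0.23, adjusted p = 0.0459) and was lost in 5 of the 6 fits that left out 1 tumor, with adjusted p = 0.259 without vehicle tumor 8, 0.0951 without vehicle tumor 9, 0.145 without RGS tumor 10, 0.0516 without RGS tumor 11 and 0.0538 without RGS tumor 12. *Rpa1*, the large DNA-binding subunit, fell by 0.87 on the log2 scale (adjusted p = 0.000696).

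Neither gene of Okazaki fragment maturation, the joining of the short pieces of the lagging strand, passed the test. *Lig1*, the ligase, measured 54.8, 54.2 and 44.8 CPM with vehicle and 37.1, 54.9 and 33.0 CPM with RGS. RGS tumor 11 lay level with the highest vehicle tumor and the other two below it (log2 fold change -0.30, SE 0.20, adjusted p = 0.277). *Fen1*, the flap nuclease, had the lowest vehicle level per length of the members, 0.688 RPKM, with 63, 44 and 38 counts with vehicle and 16, 3 and 45 counts with RGS. Its RGS tumors scattered on both sides of the vehicle tumors (log2 fold change -0.42, SE 0.95, adjusted p = 0.777), and the value turned to 0.057 without RGS tumor 11. In GENCODE M21, 84.2% of its exonic bases are shared with genes on the opposite strand, and the strand setting of the counting is not stated, so its level is uncertain.

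In nucleotide supply, 3 of 5 genes fell, among them both subunits of the main ribonucleotide reductase, the enzyme that makes deoxyribonucleotides. *Rrm2*, its small S-phase subunit, measured 37.9, 51.4 and 43.6 CPM with vehicle and 21.8, 14.2 and 15.2 CPM with RGS. The groups stood apart (log2 fold change -1.37, SE 0.22, adjusted p = 0.000117), and since the study had picked *Rrm2* from these tumors its fall is not independent evidence. *Rrm1* (chr7:102441695-102469771), the large subunit, named here after its values were seen, measured 132, 122 and 124 CPM with vehicle and 52.2, 52.7 and 50.2 CPM with RGS. Its tumors agreed within each group more closely than those of most members (log2 fold change -1.29, SE 0.16), and its adjusted p of 4.94e-06 was the smallest among the 49. *Dut*, which keeps uracil out of DNA, measured 86.3, 115 and 126 CPM with vehicle and 51.4, 53.6 and 71.3 CPM with RGS, without overlap (log2 fold change -0.89, SE 0.19, adjusted p = 0.00111). The 2 enzymes among the members that make thymidine nucleotides did not pass. *Tk1*, thymidine kinase, was at -0.55 (adjusted p = 0.0900, and 0.0374 with scaling by library size alone), and *Tyms*, thymidylate synthase, was at -0.41 (adjusted p = 0.312). Outside the member list, *Dtymk* was lower with overlapping groups (log2 fold change -0.72, adjusted p = 0.0262). *Tk2*, also outside it, did not pass (-0.11, adjusted p = 0.747).

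The 3 activating E2F factors did not pass the test in either direction. *E2f3*, with the smallest p of the 3, measured 30.4, 20.5 and 25.3 CPM with vehicle and 31.5, 29.6 and 40.2 CPM with RGS. Vehicle tumor 7 lay among the RGS tumors (log2 fold change 0.41, SE 0.22, adjusted p = 0.155). *E2f1* had means of 71.3 ± 5.22 and 74.5 ± 9.58 CPM in the vehicle and RGS groups (SD, n = 3), a log2 fold change of 0.063 (SE 0.17, adjusted p = 0.809) that turned to -0.079 with scaling by library size alone and to -0.037 without RGS tumor 12. *E2f2* was low, at 5.59 ± 3.36 and 2.94 ± 1.77 CPM (log2 fold change -0.94, SE 0.56, adjusted p = 0.215).

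A ratio of 2 genes in the same tumor needs no scaling between libraries, and 18 such ratios were compared. In 4 of them the groups did not overlap. No share over other gene pairs was computed to set beside this count. Of all tested genes taken singly, 24.0% lay lower and 21.7% higher with RGS without overlap. The log2 ratio of *Pola2* to *Pola1* was 0.74, 1.15 and 0.92 in the vehicle tumors and 1.56, 3.15 and 2.28 in the RGS tumors, a difference of 1.40. That of *Prim2* to *Prim1* was 0.11, 0.10 and -1.02 with vehicle and 0.75, 1.53 and 0.68 with RGS, a difference of 1.26. Within polymerase alpha-primase the accessory subunits thus stood higher relative to the catalytic ones in all 3 RGS tumors. The ratio of *Rfc3* to *Rfc1* was lower with RGS by 1.30, and that of *Pcna* to *Mki67*, the gene of the Ki-67 proliferation marker, higher by 1.08. For each of the 4 the two-sided exact permutation test gave p = 0.1, the smallest that 3 tumors against 3 allow, and 0.45 after Benjamini-Hochberg adjustment over the 18 ratios, so none could pass. In the other 14 ratios the groups overlapped, among them *Cdt1* to *Gmnn* (difference -0.44), *Rrm2* to *Rrm1* (-0.10), *Orc1* to *Orc2* (0.13) and *Mcm5* to *Mki67* (0.11).

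**Figure D4:**
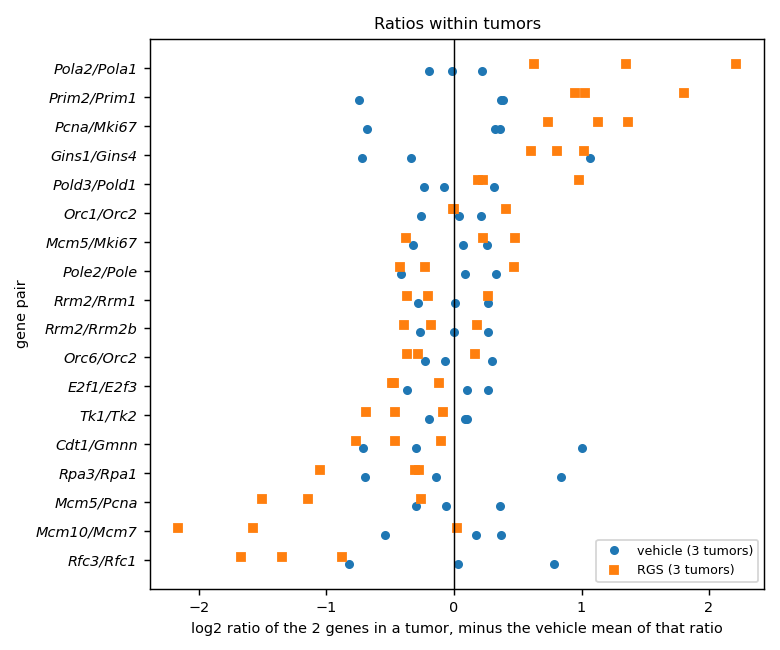
Log2 ratio of the 2 genes of a pair in each tumor, minus the vehicle mean of that ratio, for 18 pairs; circles are the 3 vehicle and squares the 3 RGS tumors. The groups do not overlap for Pola2/Pola1, Prim2/Prim1 and Pcna/Mki67, which lie higher with RGS by 1.40, 1.26 and 1.08, and for Rfc3/Rfc1, which lies lower by 1.30.

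Among other genes of the pathway, of 53 tested, 28 were lower and 2 higher, against 16.5% and 16.3% of all tested genes, with a median log2 fold change of -0.59. *Pclaf*, a PCNA-binding factor, measured 24.4, 33.0 and 36.3 CPM with vehicle and 9.71, 10.8 and 7.59 CPM with RGS, without overlap (log2 fold change -1.74, adjusted p = 3.29e-05). *Tipin*, of the fork protection complex, fell by 1.36, *Atad5*, which unloads the clamp, by 1.95, *Mtbp*, which helps origins to fire, by 1.31 and *Rrm2b*, the ribonucleotide reductase subunit used outside S phase, by 1.26. The 2 that rose were *Top1*, the topoisomerase that relaxes supercoils, which measured 119, 91.6 and 97.4 CPM with vehicle and 206, 248 and 255 CPM with RGS (log2 fold change 1.20), and *E2f5*, an E2F of the repressor class (0.75).

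Of 31 tested cell-cycle genes outside replication, 24 were lower, against 16.5% of all tested genes, and 0 were higher by edgeR (also 0 at an unadjusted p under 0.05 and by DESeq2), against 16.3%, and their median log2 fold change was -1.20. *Mki67* measured 164, 110.0 and 124 CPM with vehicle and 54.6, 37.6 and 53.3 CPM with RGS, without overlap (log2 fold change -1.45, adjusted p = 1.36e-05). For its protein, the study reports more positive cells by immunohistochemistry in tumors of this cell line given rigosertib. By flow cytometry it reports less proliferation among cells lacking a leukocyte marker. How the RNA of whole tumors relates to these protein counts was not tested. *Bub1*, of the spindle checkpoint, measured 50.8, 45.6 and 54.0 CPM with vehicle and 6.53, 7.91 and 6.97 CPM with RGS (log2 fold change -2.81). *Ccne2*, a cyclin of S phase entry, measured 25.4, 36.6 and 42.1 CPM with vehicle and 3.79, 5.05 and 3.98 CPM with RGS (log2 fold change -3.03), and *Cenpa*, the histone of centromeres, fell by 1.90. In *Bub1* and *Ccne2* the RGS tumors lay close together and far under every vehicle tumor. The list is not of one kind, since *Cdkn1b*, an inhibitor of the cell cycle, was among those that fell (-1.57), and *Cdkn1a*, another inhibitor, was at 0.12 (adjusted p = 0.577). Whether the replication and the cell-cycle genes fell by different amounts was not tested.

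**Figure D5:**
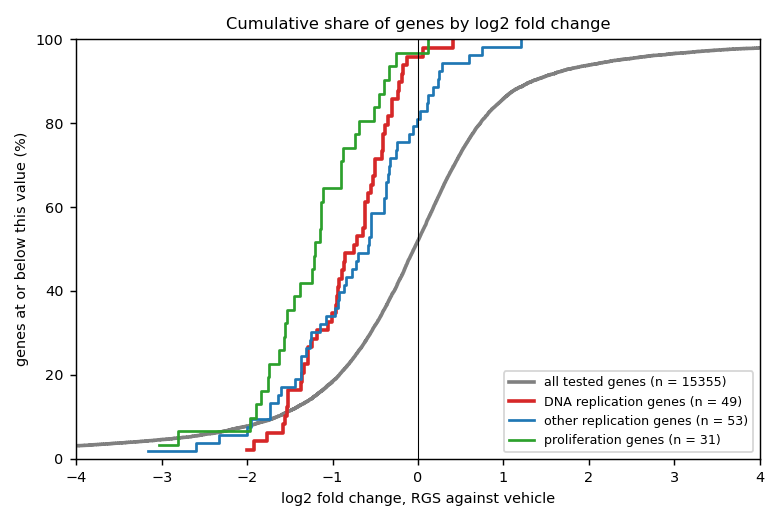
Cumulative share of genes, in percent, at or below each log2 fold change of RGS against vehicle, for all 15355 tested genes, the 49 DNA replication genes, 53 other replication genes and 31 proliferation genes. The curves of the 3 lists lie to the left of that of all genes over most of the axis, with medians of -0.75, -0.59 and -1.20 against -0.048.

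Gene length and shared exons were set beside these values. The log2 fold changes of the 49 members showed no rank relation with gene length (Spearman rho -0.00031), although the vehicle tumors differed among themselves by length (rho -0.41 for tumor 9 minus tumor 7, across genes that share these libraries). Of the 24 shortest members 14 fell, with a median log2 fold change of -0.78, and of the 24 longest 14 fell, with a median of -0.69. In GENCODE M21, 32 members share no exonic base with another gene and 8 share over 10%. Of those that fell, these were *Gins2* (67.3%, with *Gse1*), *Orc2* (29.8%, with *Nif3l1*), *Rfc4* (12.7%, with *Eif4a2*), *Mcm7* (12.6%, with *Ap4m1*, *Cops6* and 2 microRNA genes) and *Rfc5* (10.7%, with *Wsb2*). The mean level of *Eif4a2* was 851 CPM with vehicle and 364 CPM with RGS, far above that of *Rfc4*, and reads of the opposite strand cannot be told apart where strand was not used.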

How the data were processed

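The authors trimmed, aligned and counted paired-end reads of 150 bases, and deposited them as raw counts in a table with a column for each tumor. The submitters' processing notes name cutadapt 1.18, FastQC 0.11.7, STAR 2.7.1a, featureCounts 1.6.4 and mm10. Whether counting used strand, and what became of multi-mapped reads, is not given in the sources used here. Gene positions are those of GRCm38, since 48 of the 49 members had the same identifier and position in GENCODE M21. Groups came from the sample labels, which do not say more of the tumors' separate origin than replicate. The p-values of edgeR set the difference between groups against the spread among these 6 tumors within their groups, estimated in part across genes. Whether that spread covers variation between mice is not known.

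In R 4.3.3, genes were kept if the median count reached 5 with vehicle or with RGS. Libraries were scaled by TMM and RGS was compared with vehicle by the quasi-likelihood F test of edgeR 4.0.16, and p-values of 15355 genes were adjusted by Benjamini-Hochberg. Standard errors were derived from the log2 fold change and the square root of F. RPKM used the lengths in the table. Log2 ratios of gene pairs used a prior count of 2 and exact permutation tests (scipy 1.17.1). The edgeR fit and the DESeq2 and limma voom alternatives were run on simulated counts. In these, far fewer genes changed than passed the test here, evenly in both directions, so the run does not cover so broad a change. The pair ratios and motif shares were not tried in this way. No set test was run.

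The members and lists were chosen with earlier results of these data known. Values in every tumor are given, in each role, for the members past the test with the lowest and the highest log2 fold change (with none, the member with the smallest p), for members of the pairs described, for *Mki67*, and for the genes of smallest adjusted p in the 2 further lists (at most 5 lower and 5 higher), some of them by log2 fold change only. *Gmnn*, *Rrm1* and *Fen1* were given per tumor after their values were seen. Alternatives were DESeq2 1.42.0, limma 3.58.1 voom, robust dispersions, RLE, upper-quartile and library-size scaling, no filter, filterByExpr, thinning to the smallest library, leaving out mitochondrial and ribosomal protein genes, 2 stricter thresholds and leaving out each tumor. Promoter windows came from RefSeq (GRCm38.p6), with 41 of 49 members matched by symbol, and motifs were exact matches on both strands. For 2 symbols of the further replication list no gene of that name was analysed here. The 2 proliferation genes that did not pass the filter, *Kif11* and *Cdkn2a*, had 0 counts in every tumor. Whether this reflects their expression or the counting was not tested.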

Additional observations from a re-analysis of the deposited data

How the results depend on the processing

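No paired analysis was possible because the replicate numbers 7 to 9 and 10 to 12 are not shared by the groups. Of 882 values for the 49 members under 18 alternatives, 827 kept direction and side of the threshold, 41 lost and 10 gained the call, and 4 changed sign: *Gins3* (0.051 without vehicle replicate 9), *Fen1* (0.057 without RGS replicate 11) and *E2f1* (-0.079 with library size only and -0.037 without RGS replicate 12), none of them called. Leaving out 1 tumor gave -0.39 to 0.051 for *Gins3*, -1.73 to 0.057 for *Fen1* and -0.037 to 0.16 for *E2f1*. Of the 29 members called lower, 21 kept the call in all 6 fits that left out 1 tumor. At an adjusted p under 0.01, all tested genes gave 1562 lower and 1607 higher, the members 22 lower and the other replication genes 18 lower. When a log2 fold change of 1 or more in size was also required, all tested genes gave 1450 lower and 1168 higher, the members 17 lower and the other replication genes 17 lower and 1 higher. Both thresholds pass fewer genes by construction. Leaving out 1 tumor gave 1717 to 2551 lower and 1776 to 2698 higher over all tested genes, 24 to 29 lower and 0 higher among the members, 20 to 26 lower and 2 to 3 higher among the other replication genes, and 22 to 25 lower and 0 higher among the proliferation genes. Scaling by library size alone moved the median log2 fold change of all tested genes from -0.048 to -0.19, with 3152 lower and 1870 higher in place of 2533 and 2503. The median of the members was then -0.89, with 33 lower. In the 150 bases before the start, 21.95% of members held an E2F-type motif, against 1.44% of all genes with a window. The share was 2.52% in tested genes, 8.89% in other replication genes and 16.0% in proliferation genes. The shorter window holds fewer letters. Thinned to the smallest library, the members gave 28 lower, all tested genes 2497 lower and 2476 higher, and *Rpa2* lost its call (adjusted p = 0.0619).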
